A study of Mus musculus with 2 samples.

Results

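Mast cells of mouse dorsal skin were examined in a wildtype C57BL/6J mouse and in an Eppk1-/- mouse backcrossed into C57BL/6J. Both animals were untreated, and their age and sex are not given in the sources used here. A punch of intact back skin from each mouse was dissociated with enzymes at 37 degrees, and the fixed cells were measured by single-cell RNA sequencing with pairs of probes against the mouse transcriptome. Each genotype is 1 mouse and 1 library, both libraries carried their own probe barcode, and they were processed as a pool. The cells described here were selected on their transcripts of granule proteases. A cell was taken when Tpsb2, Cma1, Mcpt4, Cpa3 and Mcpt8 together made up at least 0.2% of its unique molecular identifiers (UMIs, counted molecules) with at least 4 UMIs, and when the collagen genes Col1a1, Col1a2 and Col3a1 and the proteoglycan gene Dcn together stayed under 2%. This gave 53 of 8875 wildtype cells and 74 of 8617 Eppk1-/- cells, 127 of 17492 in all, after cells outside 200 to 45000 UMIs and 100 to 7500 genes or with over 10% mitochondrial UMIs were left out. As a check of the labels, Eppk1 in keratinocytes was counted at 4839 and 1230 UMIs per 1000000 UMIs in the wildtype and the knockout library, a log2 ratio of -1.98, so the library labelled knockout carried less.

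Mast cells are long-lived immune cells that settle in the dermis, often beside vessels and nerves, and depend on stem cell factor acting through the receptor KIT. Their granules store histamine, serglycin proteoglycans loaded with heparin, and proteases, namely chymases (Cma1, Mcpt4), tryptases (Tpsb2, Tpsab1, Tpsg1) and carboxypeptidase A3 (Cpa3). Contact of antigen with immunoglobulin E (IgE) bound to the high-affinity IgE receptor, or activation of MRGPR receptors by cationic peptides, releases these stores, and cytokines and lipid mediators are made afterwards. Basophils are circulating relatives that share the IgE receptor and in mice carry the protease genes Mcpt8 and Prss34. Eppk1 encodes epiplakin, a plakin of epithelia that binds keratins.

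Mcpt8, the part of the selection that was meant to reach basophils, was not detected in any selected cell. No Mcpt8 UMI was found in 53 wildtype cells, which allows a share of up to 5.66% of cells with a UMI, or in 74 Eppk1-/- cells, which allows up to 4.05%. Both kept libraries together held 2 Mcpt8 UMIs, in 2 Eppk1-/- cells outside the selection. Most selected cells carried Hdc, Gata2 and Kit, markers of mast cells that took no part in the selection. Other such markers were found in fewer, with Fcer1a in 16 of 53 and 30 of 74 cells and Tpsab1 in 14 and 18. The selected cells are therefore called mast cells here, and none of them was marked as a basophil by Mcpt8 at this depth. Whether any cell outside the selection was a basophil was not tested.

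The genes that served for selection lie in 3 places of the mouse genome (GRCm38, the build of the files, with GENCODE M21 gene models). Cma1 (ENSMUSG00000022225) at chr14:55941451-55944675 and Mcpt4 (ENSMUSG00000061068) at chr14:56059629-56062313 share the mast cell protease locus with Mcpt8 at chr14:56082166-56085273 and the cathepsin G gene Ctsg at chr14:56099881-56102574, all on the minus strand. Tpsb2 (ENSMUSG00000033825) at chr17:25366305-25369098 and Tpsg1 at chr17:25369273-25374442 lie next to each other on the plus strand of the tryptase locus, beside Tpsab1 at chr17:25343245-25345562 on the minus strand and Prss34 at chr17:25298394-25300165 on the plus strand. Cpa3 (ENSMUSG00000001865) at chr3:20215620-20242181 lies apart on the minus strand. The probes of a gene are counted together, and the exons they read are not known here. Reads of closely related tryptase genes could be divided by the probes in a way that is not known here.

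The DNA just upstream of genes that set these cells apart is shown because the same short motif recurs in it. Each sequence is the 250 bases before the gene's start in RefSeq on GRCm38.p6, read 5′ to 3′ on the strand of the gene, which is the minus strand for all 4. Capitals mark GATAA or its reverse complement TTATC, the core letters that GATA factors recognise. The intervals are chr14:56062311-56062560 for Mcpt4, chr14:55944676-55944925 for Cma1, chr3:20242182-20242431 for Cpa3 and chr19:11623720-11623969 for Ms4a2, the gene of the beta chain of the IgE receptor.
Mcpt4: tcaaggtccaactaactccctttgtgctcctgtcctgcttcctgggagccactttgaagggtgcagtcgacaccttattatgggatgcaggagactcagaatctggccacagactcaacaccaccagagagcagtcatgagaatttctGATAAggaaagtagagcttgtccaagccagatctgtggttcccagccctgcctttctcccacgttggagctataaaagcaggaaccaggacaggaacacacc
Cma1: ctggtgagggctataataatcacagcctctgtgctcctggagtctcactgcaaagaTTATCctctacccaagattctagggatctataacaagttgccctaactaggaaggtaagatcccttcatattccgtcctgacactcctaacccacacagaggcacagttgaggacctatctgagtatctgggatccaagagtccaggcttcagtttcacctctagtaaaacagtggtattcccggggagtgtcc
Cpa3: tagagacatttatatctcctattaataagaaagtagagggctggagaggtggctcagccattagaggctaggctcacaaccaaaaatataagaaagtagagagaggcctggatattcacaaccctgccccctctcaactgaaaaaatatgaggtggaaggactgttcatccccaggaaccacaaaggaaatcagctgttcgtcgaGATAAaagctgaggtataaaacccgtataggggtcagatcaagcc
Ms4a2: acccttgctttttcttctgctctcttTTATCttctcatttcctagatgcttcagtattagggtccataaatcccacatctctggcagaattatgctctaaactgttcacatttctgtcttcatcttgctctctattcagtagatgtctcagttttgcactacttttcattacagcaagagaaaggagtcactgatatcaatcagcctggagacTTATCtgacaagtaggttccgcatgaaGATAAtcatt
The match began 102 bases before the start of Mcpt4, 194 bases before that of Cma1 and 45 bases before that of Cpa3. In Ms4a2, 3 matches began 224, 37 and 10 bases before the start. Among all 32851 RefSeq promoters of this length, 22.6% held GATAA on either strand. Of genes with a promoter available, 6 of 11 on the granule protease list (54.5%) and 7 of 17 on the list of mast cell identity (41.2%) held the motif. For these lists a gene was counted once, and as holding the motif when any of its promoters did. Of 1482 promoters of genes that passed the detection rule below, it was found in 14.1%. There, as among all promoters, each promoter was counted separately. This difference in counting favours the lists, so their shares cannot be compared directly with the other shares. The promoters of Kit, Hdc, Gata2, Mrgprb1, Cyp11a1, Srgn, Slc6a4, Ctsg and the selecting gene Mcpt8 held none in this window. Prss34, Fcer1a and 1 promoter of Tpsg1 held 1 match, and another promoter of Tpsg1 held none. No promoter of the selecting gene Tpsb2 or of Tpsab1 was available. A match of 5 letters is a description of the sequence, and binding was not measured.

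The selected cells stood well apart from all others on the measure that chose them. Their summed share of UMIs from the selecting genes was 0.751% to 18.1% in wildtype cells (median 4.20%) and 0.761% to 22.5% in Eppk1-/- cells (median 4.95%). The next lowest members stood at 1.15% and 1.34%. Outside the selection and under the collagen ceiling, the highest shares were 0.148% and 0.161%. The threshold of 0.2% thus fell in a gap between the cells outside and those inside, and the collagen ceiling removed 1 wildtype and 2 Eppk1-/- cells that passed the other parts. Members held 95% and 94.8% of all UMIs of the selecting genes in the kept cells, and 136 and 189 other cells held the rest.

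**Figure D1:**
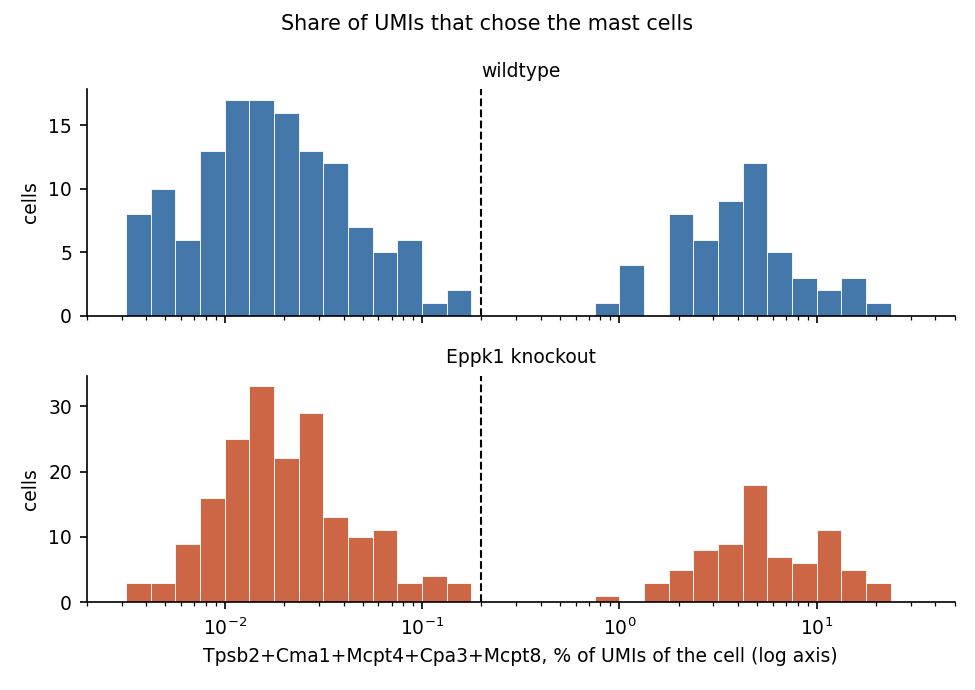
Number of kept cells (vertical axis) by the percent of their UMIs from Tpsb2, Cma1, Mcpt4, Cpa3 and Mcpt8 (log axis), wildtype above and Eppk1-/- below, with the dashed line at 0.2%. The lowest selected cells lie at 0.751% and 0.761%, and the cells left of the line hold few UMIs of these genes. Cells over the collagen ceiling are included, and cells with none of these UMIs or with a share left of the axis are not shown.

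Mast cells made up 0.597% of wildtype cells (exact 95% binomial interval 0.448 to 0.780) and 0.859% of Eppk1-/- cells (0.675 to 1.08), a fold of 1.44 (interval 0.997 to 2.09). All intervals in this text are exact, at the 95% level, and cover counting error only, since the spread between mice of a genotype is not known and no test between genotypes was possible. The direction depended on what the cells were counted against. Fibroblasts, taken as cells with at least 2% of UMIs from the same collagen and Dcn genes, made up 18.2% of wildtype and 30.6% of Eppk1-/- cells. Keratinocytes, with at least 2% of UMIs from Krt5, Krt14, Krt1 and Krt10, made up 21.6% and 19.9%. Per 100 fibroblasts there were 3.29 wildtype and 2.80 Eppk1-/- mast cells, and per 100 macrophages (cells with C1qa, C1qb and C1qc) 8.91 and 8.49. Among cells that were neither keratinocytes nor fibroblasts, the shares were 0.992% (0.744 to 1.30) and 1.74% (1.37 to 2.18). How fully each tissue released its mast cells was not measured.

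Mast cells were shallow among the cells of this skin. Their median was 2423 UMIs and 1243 genes in wildtype cells and 2606 UMIs and 1364 genes in Eppk1-/- cells, against 4963 and 5006 UMIs for all kept cells. Library totals were 77638793 and 65118304 UMIs. Summed over members, 159093 wildtype and 208263 Eppk1-/- UMIs of non-mitochondrial genes were available, so that 1 UMI equals 6.29 and 4.80 CPM, the UMIs of a gene per 1000000 of the summed UMIs. A wildtype cell of 25827 UMIs and 5371 genes held 16.1% of all wildtype mast cell UMIs, had the lowest share of the selecting genes and held 70.9% of the keratinocyte marker UMIs of wildtype members. Because it weighs on every wildtype sum, values without this cell are given beside the results that it moved. Leaving it out was decided after the data were seen.

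RNA of other cell types was scarce in most members. Keratinocyte markers reached 1% of UMIs in 4 of 53 wildtype and 11 of 74 Eppk1-/- cells, and their medians were 0.0978% and 0.0703%. Fibroblast markers reached 1% in no wildtype and 2 Eppk1-/- cells, and macrophage markers in none of either library. The complement gene C1qa had 0 and 3 UMIs over all members, and the neutrophil gene S100a8 and the eosinophil genes Prg2 and Epx had 0 in both. All 5 melanocyte markers were at 0, so the Kit transcripts described below did not come with melanocyte transcripts. T and NK cell markers had 1 UMI in wildtype cells and 44 in Eppk1-/- cells, of which 88.6% lay in 1 cell. Of 1211 droplet barcodes that both libraries shared, 6 wildtype and 13 Eppk1-/- members carried one.

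Hdc, Gata2 and Kit, which took no part in the selection, were found in most members and in few keratinocytes, fibroblasts or macrophages. Other identity genes were found in fewer members, such as Fcer1a in 30.2% of wildtype and 40.5% of Eppk1-/- members and Ms4a2 in 62.3% and 67.6%, without thinning. To compare cells of unequal depth, each cell was reduced at random (thinned) to 1000 UMIs, and 2 wildtype and 7 Eppk1-/- mast cells with fewer were left out. Hdc, the enzyme that makes histamine, was then found in 98.0% of wildtype (89.6 to 100) and 94.0% of Eppk1-/- mast cells (85.4 to 98.3). Gata2, a transcription factor that mast cells need, was found in 94.1% and 88.1%, and Kit, the receptor of stem cell factor, in 86.3% and 83.6%. Without thinning the shares were 100% and 94.6% for Hdc, 100% and 91.9% for Gata2, and 98.1% and 97.3% for Kit. In keratinocytes, whose medians were 5364 and 5174 UMIs before thinning, Hdc was found in 0.0531% and 0% of thinned cells, and Kit and Gata2 in 0% in both libraries. The intervals of the genotypes overlapped for each of these genes.

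Members also accounted for most of the UMIs of such genes in the whole libraries. Mrgprb1, a mast cell receptor of the MRGPR family, had 95.6% of its wildtype and 97.6% of its Eppk1-/- UMIs in the selected cells. For Ms4a2 this was 93.1% and 98.9%, for Hdc 90.3% and 95.6%, and for Gata2 88.4% and 91.3%. Kit was the exception, with 55.9% and 74.8%. Of cells outside the selection, 7 wildtype and 4 Eppk1-/- cells held at least 4 UMIs and 0.2% of UMIs from Kit, Fcer1a, Ms4a2, Gata2, Hdc, Mrgprb1 and Cyp11a1. Of these, 1 wildtype and 2 Eppk1-/- cells were those over the collagen ceiling, and the others held Kit alone or Hdc alone among these genes. All but 1 of the cells with Kit alone carried UMIs of the pigment genes Dct or Pmel.

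**Figure D2:**
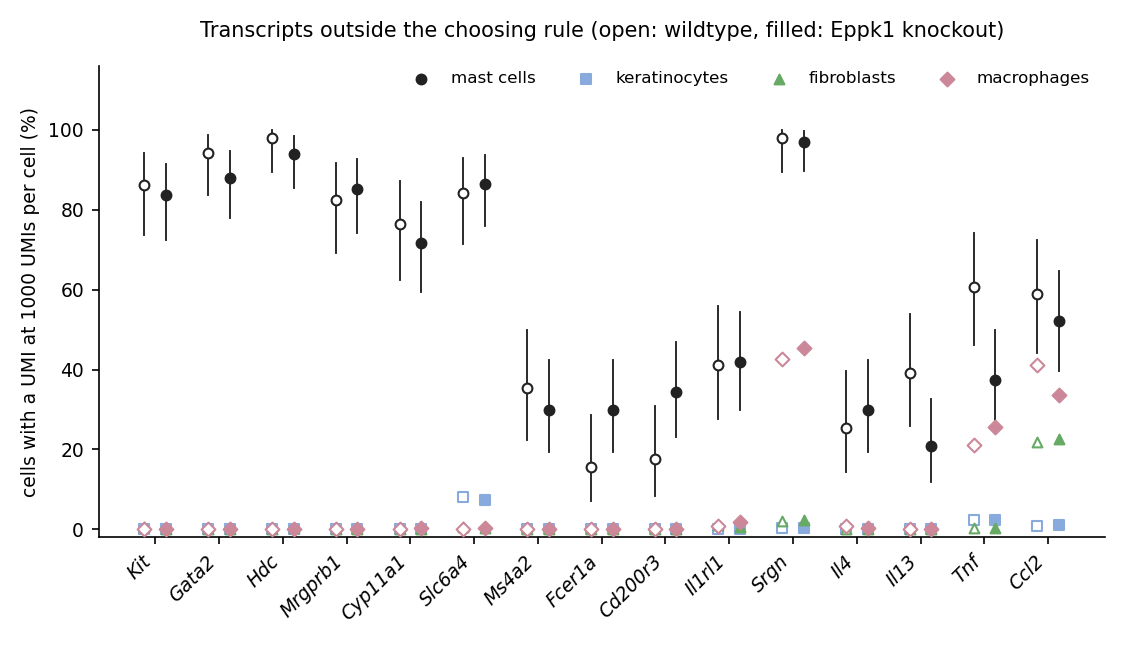
Percent of cells with a UMI of each gene after thinning to 1000 UMIs (vertical axis), for mast cells with exact 95% intervals and for keratinocytes, fibroblasts and macrophages, open symbols for the wildtype and filled for the Eppk1-/- library. Kit, Gata2, Hdc, Mrgprb1 and Cyp11a1 stand above 70% in mast cells and near 0 elsewhere, while Srgn, Tnf and Ccl2 are shared with macrophages.

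The 10 genes with the highest ratio of mast cells over all other kept cells were Tpsg1, Mrgprb1, Mcpt4, Ms4a2, Cma1, Cpa3, Tpsab1, Cyp11a1, Tpsb2 and Hdc. The lower of the 2 library folds ran from 3516 for Hdc to 10305 for Tpsg1. Of these genes, Mcpt4, Cma1, Cpa3 and Tpsb2 had chosen the cells. Cyp11a1, the enzyme that makes pregnenolone from cholesterol, was found in 76.5% and 71.6% of thinned mast cells and in 0% of keratinocytes. Its CPM was 1251 in wildtype cells and 1239 in Eppk1-/- cells, a log2 ratio of -0.01 (interval -0.29 to 0.26). Slc6a4, the serotonin transporter, was found in 84.3% and 86.6% of mast cells, and also in 8.22% and 7.41% of keratinocytes. Adora3, an adenosine receptor, was found in 70.6% and 71.6% of mast cells and in at most 0.633% of keratinocytes, fibroblasts or macrophages.

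Skin is known to hold mast cells of the connective tissue type. The cells were chosen on Cma1, Mcpt4, Cpa3 and Tpsb2, so their protease pattern followed in part from the selection. It therefore does not show their type. Genes outside the selection on the list of connective tissue type, such as Mrgprb1 and Mrgprb2, were detected. Mrgprb1 was counted at 2345 CPM in wildtype cells (interval 2113 to 2595) and 2348 CPM in Eppk1-/- cells (2144 to 2566), a log2 ratio of 0.00 (-0.20 to 0.20). Mrgprb2, the receptor through which cationic peptides and many drugs trigger mouse mast cells, had 40 and 37 UMIs, or 251 and 178 CPM, with a log2 ratio of -0.50 (-1.19 to 0.18). The mucosal proteases Mcpt1 and Mcpt9 had 0 UMIs in both libraries, and Mcpt2 had 0 and 1. They took no part in the selection, so cells that carried mainly these proteases could have been missed. Integrin genes on the list of mucosal type were present, with 39 and 45 UMIs for Itgb7 and 47 and 55 for Itga2, but Itga2 was also found in 12.5% and 11.3% of thinned keratinocytes. The granzyme genes Gzma and Gzmb and the chymase gene Cma2 were at 0 in both libraries.

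Granule protease transcripts that had served for selection took a larger part of the mast cell RNA in Eppk1-/- cells. They were summed to 6493 UMIs in wildtype cells and 12039 in Eppk1-/- cells, 4.08% and 5.78% of all mast cell UMIs, a log2 ratio of Eppk1-/- over wildtype of 0.50 (interval 0.46 to 0.55). Log2 ratios were taken after 0.5 UMI was added to each sum. Without the deepest wildtype cell the value was 0.29. These genes chose the cells, so their values are a description.

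Mcpt4, the main chymase of connective tissue mast cells, was counted at 16079 CPM in wildtype cells and 22265 CPM in Eppk1-/- cells (log2 ratio 0.47, interval 0.40 to 0.54). Per 1000 UMIs of a cell, it ran from 1.81 to 64.3 in wildtype cells (median 16.1) and from 2.75 to 72.6 in Eppk1-/- cells (median 21.3). Cma1, the other chymase, stood at 9617 and 15413 CPM (0.68, interval 0.59 to 0.77), with medians of 7.15 and 11.9 per 1000 UMIs. Both ranges overlapped over most of their length. Cpa3 stood at 9095 and 11726 CPM (0.37, interval 0.27 to 0.46) and Tpsb2, which encodes the tryptase mMCP-6, at 6022 and 8403 CPM (0.48, interval 0.37 to 0.60). Without the deepest wildtype cell the log2 ratios were 0.26 for Mcpt4, 0.47 for Cma1, 0.15 for Cpa3 and 0.27 for Tpsb2. These CPM values order libraries and not genes, since the number of probes per gene differs.

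Proteases outside the selection did not all go the same way in the summed counts. As background for intervals, 12.8% of all 1480 genes with at least 50 UMIs had an interval above 0 and 10.1% one below 0, and 57.2% had a log2 ratio above 0. Tpsg1, a tryptase held at the membrane, had 136 wildtype and 282 Eppk1-/- UMIs, or 855 CPM (interval 717 to 1011) and 1354 CPM (1201 to 1522), a log2 ratio of 0.66 (0.36 to 0.97) and of 0.41 without the deepest cell. After thinning, it was found in 56.9% (42.2 to 70.7) and 76.1% (64.1 to 85.7) of mast cells, and in 79.2% and 85.1% without thinning. Tpsab1, which encodes the tryptase mMCP-7, went the other way in the sums, with 53 and 45 UMIs and 333 and 216 CPM. Its log2 ratio was -0.62 (-1.23 to -0.02), but 0.08 after thinning, so no direction is read from it. It was found in 26.4% and 24.3% of members, and 1 wildtype cell held 32.1% of its UMIs. C57BL/6 mice are known to carry a splice site change in Tpsab1 that leaves little of its protein. Ctsg, the gene of cathepsin G, had 10 and 26 UMIs in 11.3% and 16.2% of members, too few to show a difference.

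Prss34, a protease gene named for basophils and also described in mast cells, was found in 1 wildtype mast cell with 3 UMIs and in 8 Eppk1-/- mast cells with 1 to 11 UMIs each, 34 in all. Those 8 cells held 0 to 11 Kit UMIs, and 2 of them, of 503 and 605 UMIs in all, held none. Their median depth was 1884.5 UMIs, against 2632.5 for the other Eppk1-/- members. Outside the members, 0 wildtype and 2 Eppk1-/- cells held a Prss34 UMI. Thinning to 1000 UMIs left Prss34 in 0% (0 to 6.98) and 5.97% (1.65 to 14.6) of mast cells. The difference between the libraries therefore rested on few cells.

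Within each library, the 4 selecting proteases varied together from cell to cell, and the same genes chose the cells. Across the 53 wildtype members, the rank correlation of Mcpt4 per 1000 UMIs was 0.83 with Cma1, 0.74 with Cpa3 and 0.69 with Tpsb2. Across the 74 Eppk1-/- members it was 0.83, 0.80 and 0.66. Tpsg1, a tryptase outside the selection, stood at 0.20 and 0.23, and Kit at 0.29 and 0.35. The median cell held 2 and 3.5 Tpsg1 UMIs, against 39 and 50 of Mcpt4, and counts that low weaken a rank correlation. Whether Tpsg1 is less closely linked to Mcpt4 cannot be told from these values. Hdc gave -0.29 and -0.06 and Gata2 -0.03 and 0.05. These values describe cells of 1 library each, which share their depth and preparation, and all shares within a cell compete for the same total.

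**Figure D3:**
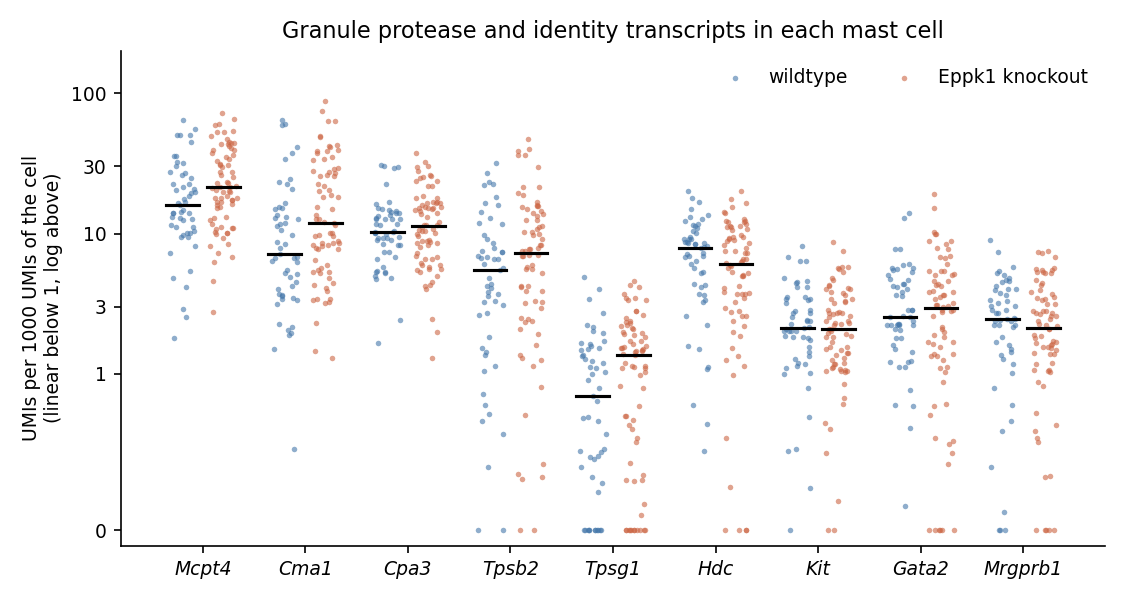
UMIs per 1000 UMIs of each mast cell (vertical axis, linear below 1 and log above), 1 point per cell, wildtype in blue and Eppk1-/- in red, with black bars at the medians. The 4 selecting proteases have higher medians in Eppk1-/- cells (16.1 and 21.3 for Mcpt4), while the medians of Kit nearly coincide (2.12 and 2.09), and the points of both libraries overlap for every gene.

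Histamine and matrix genes of the granule had a median near 0, but some of them were higher. Hdc was counted at 6650 CPM in wildtype cells (interval 6255 to 7063) and 6617 CPM in Eppk1-/- cells (6272 to 6975), a log2 ratio of -0.01 (-0.12 to 0.11) and of -0.24 without the deepest cell. Srgn, the core protein of serglycin on which the proteases are stored, stood at 3250 and 3995 CPM (0.30, interval 0.14 to 0.46), and at 0.07 without that cell. Ndst2, the sulfotransferase required for heparin, had 59 and 63 UMIs and a log2 ratio of -0.29 (-0.83 to 0.24). Of 9 genes of this list with at least 50 UMIs, 4 were higher and 5 lower, with a median log2 ratio of -0.01. In 3 of the 9 the interval lay above 0 and in none below, where 12.8% and 10.1% of all genes did. The serotonin side of the list held its largest value, that of Tph1.

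Tph1, the first enzyme of serotonin synthesis, was higher in Eppk1-/- cells, with 22 wildtype and 70 Eppk1-/- UMIs. This came to 138 CPM (interval 86.7 to 209) and 336 CPM (262 to 425), a log2 ratio of 1.26 (0.57 to 2.04) and of 1.07 without the deepest wildtype cell. Its UMIs lay in 26.4% of wildtype members and 37.8% of Eppk1-/- members, in 9.80% (3.26 to 21.4) and 25.4% (15.5 to 37.5) after thinning, and in 0% of thinned keratinocytes, fibroblasts and macrophages. The highest cell held 3 UMIs in wildtype cells and 10 in Eppk1-/- cells. Over all alternatives its log2 ratio ran from 1.07 to 1.57. Slc6a4, which takes serotonin up, stood at 1609 and 1657 CPM (0.04, interval -0.20 to 0.28), and Maob, which breaks amines down, at 226 and 355 CPM (0.64, interval 0.06 to 1.27).

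The subunits of the IgE receptor differed from each other. Fcer1a, the alpha chain that binds IgE, had 34 wildtype and 92 Eppk1-/- UMIs, or 214 CPM (interval 148 to 299) and 442 CPM (356 to 542), a log2 ratio of 1.03 (0.47 to 1.66) and of 0.91 without the deepest cell. After thinning, it was found in 15.7% (7.02 to 28.6) and 29.9% (19.3 to 42.3) of mast cells, so the intervals overlapped. Ms4a2, the beta chain, stood at 421 and 413 CPM (-0.03, interval -0.51 to 0.45). Fcer1g, the gamma chain that macrophages also use, stood at 937 and 1138 CPM (0.28, interval -0.02 to 0.59) and was found in 80.5% and 72.9% of thinned macrophages.

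Downstream of the receptor, most genes of the pathway were near the median of all genes. Of 12 genes on the list of IgE receptor signalling with at least 50 UMIs, 10 were higher and 2 lower, with a median log2 ratio of 0.11, against 0.07 for all 1480 genes with that many UMIs. Only the intervals of Fcer1a and Lat2 lay above 0. Lat2, an adaptor of the receptor, stood at 471 and 682 CPM (0.53, interval 0.12 to 0.96). The kinases Lyn (0.02, interval -0.40 to 0.46), Fyn (0.03) and Syk (0.27, interval -0.37 to 0.94) and the inhibitory phosphatase Inpp5d (-0.00, interval -0.32 to 0.32) did not differ beyond counting error. Without the deepest wildtype cell the median of the list was -0.08. Genes of granule release were too sparse to describe as a group, as 4 of 18 measured genes had 50 UMIs. Among those below that number, Stxbp2, a partner of syntaxins in degranulation, had 7 and 33 UMIs.

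Kit and Mitf did not differ beyond counting error, while 4 other genes of growth and transcription had intervals above 0 when all members were counted. Kit stood at 2043 CPM in wildtype cells (interval 1827 to 2277) and 2199 CPM in Eppk1-/- cells (2002 to 2410), a log2 ratio of 0.11 (-0.10 to 0.32) and of -0.12 without the deepest wildtype cell. Gata2 stood at 3118 and 3692 CPM (0.24, interval 0.08 to 0.41), and at 0.00 without that cell. Of 13 genes on this list with at least 50 UMIs, 10 were higher and 3 lower, with a median log2 ratio of 0.11, and 4 intervals lay above 0 and none below, where 12.8% and 10.1% of all genes did. Besides Gata2 these were Tal1 (214 and 394 CPM, 0.87, interval 0.29 to 1.5), Myb (585 and 855 CPM, 0.54, interval 0.18 to 0.93) and Ikzf1 (289 and 432 CPM, 0.57, interval 0.05 to 1.13), all regulators of blood cell development. Without the deepest wildtype cell the median of the list was 0.00, and the log2 ratio of Tal1 was 0.61. Without members over 1% of keratinocyte or macrophage markers the median was -0.05. Such values are not given here for Myb and Ikzf1. Mitf, the factor that mast cells share with melanocytes, had 31 and 42 UMIs and a log2 ratio of 0.04 (-0.65 to 0.77). Of 11 measured genes of the cell cycle, Mki67 and 4 others were at 0 in both libraries, and Pcna had 106 and 118 UMIs.

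Of 6 receptor genes for cytokines and other signals with at least 50 UMIs, 5 were higher and 1 lower, with a median log2 ratio of 0.31 and of 0.07 without the deepest wildtype cell, and 1 interval lay above 0. Adora3 was counted at 1703 CPM in wildtype cells and 1666 CPM in Eppk1-/- cells (log2 ratio -0.03, interval -0.27 to 0.20). Il1rl1, the receptor of interleukin 33, stood at 610 and 787 CPM (0.37, interval -0.00 to 0.75). Csf2rb2, the mouse beta chain for interleukin 3, had 30 and 87 UMIs, or 189 and 418 CPM, with a log2 ratio of 1.13 (0.53 to 1.80) and of 0.88 without the deepest cell. Its share of thinned cells was nearly level, at 15.7% and 16.4%. Its close relative Csf2rb stood at 572 and 711 CPM (0.31, interval -0.07 to 0.71), and how the probes divide these near-identical genes is not known. Of 21 receptor genes on the list, 7 were at 0 in both libraries, among them Ccr1, Ccr2, Ccr3, C5ar1 and Il9r. Cd200r3, an activating receptor of mast cells and basophils, had 49 and 88 UMIs (0.45, interval -0.06 to 0.99).

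Cytokine transcripts of type 2 immunity were present in both libraries and nearly confined to mast cells among the classes compared. Il4 had 50 wildtype and 79 Eppk1-/- UMIs, or 314 and 379 CPM (log2 ratio 0.27, interval -0.26 to 0.81), and Il13 had 51 and 61 UMIs, or 321 and 293 CPM (-0.13, interval -0.69 to 0.44). After thinning, Il4 was found in 25.5% and 29.9% of mast cells and Il13 in 39.2% (25.8 to 53.9) and 20.9% (11.9 to 32.6). At most 0.727% of thinned keratinocytes, fibroblasts or macrophages held either gene. Il4 and Il13, which lie close together in the genome, were both found in 16 of 53 wildtype and 18 of 74 Eppk1-/- members. Of members with Il4, 57.1% of wildtype and 52.9% of Eppk1-/- cells also held Il13, against 52.0% and 20% of those without Il4. Il5, Il9 and Il31 had 0 UMIs in both libraries.

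Tnf, which mast cells can store and release at once, was lower in Eppk1-/- cells. It had 180 wildtype and 150 Eppk1-/- UMIs, or 1131 CPM (interval 972 to 1309) and 720 CPM (610 to 845), a log2 ratio of -0.65 (-0.97 to -0.33) and of -0.85 without the deepest wildtype cell. The median cell held 3 UMIs in wildtype cells and 1 in Eppk1-/- cells. It was found in 81.1% and 60.8% of members, and in 60.8% (46.1 to 74.2) and 37.3% (25.8 to 50) of thinned ones. In thinned macrophages these shares were 21.1% and 25.7%. Csf2, the gene of GM-CSF, had 42 and 34 UMIs (-0.69, interval -1.39 to -0.01) and Osm, the gene of oncostatin M, had 55 in each (-0.39, interval -0.95 to 0.18).

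Other secreted factors were higher in Eppk1-/- cells or level. Vegfa, which drives growth of vessels, had 55 wildtype and 142 Eppk1-/- UMIs, or 346 and 682 CPM (log2 ratio 0.97, interval 0.52 to 1.46), and a log2 ratio of 0.80 without the deepest cell. Its share of thinned cells was 27.5% and 29.9%, and 1 Eppk1-/- cell held 20.4% of its UMIs. The chemokine genes Ccl2 (1433 and 1479 CPM, log2 ratio 0.04) and Ccl7 (685 and 912 CPM, 0.41, interval 0.07 to 0.77) were found in fibroblasts and macrophages as well. The log2 ratio of Ccl7 turned to -0.53 without the cell filter and was -0.02 with each cell given the same weight. The highest Eppk1-/- cell for Ccl2 held 36.7% of its UMIs, and that for Ccl7 held 32.1%. Il6 stood at 465 and 437 CPM (-0.09, interval -0.55 to 0.37). Of 10 genes of this list with at least 50 UMIs, 4 were higher and 6 lower, with a median log2 ratio of -0.08.

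Enzymes of lipid mediators were mostly too sparse to compare. Hpgds, the prostaglandin D synthase of mast cells, had 43 and 70 UMIs, or 270 and 336 CPM (log2 ratio 0.31, interval -0.25 to 0.90). Alox5, the enzyme that starts leukotriene synthesis, had 0 wildtype UMIs, which allows up to 18.9 CPM, and 14 Eppk1-/- UMIs in 13.5% of cells, or 67.2 CPM. Ptges had 0 and 17 UMIs, and Ptgs2 had 3 and 50, of which 1 Eppk1-/- cell held 48.0%. Lta4h, which acts after Alox5, went the other way with 22 and 10 UMIs. Ltc4s was at 0 in both libraries.

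Genes that answer tissue handling and stress within minutes were lower in Eppk1-/- mast cells. Of 22 such early genes with at least 50 UMIs, 17 were lower and 5 higher, 13 intervals lay below 0 and 1 above, and the median log2 ratio was -0.29 against 0.07 for all genes. Summed, the list took 58532 CPM in wildtype cells and 44242 CPM in Eppk1-/- cells, a log2 ratio of -0.40 (interval -0.45 to -0.36). The counts and the sum include Hspa1a and Hspa1b, from which no order of the libraries is read below. The summed ratio and its interval therefore do not describe the list without these genes. Without the deepest wildtype cell the median was -0.38. In the other cell classes the median of the list was -0.03 in keratinocytes, -0.04 in fibroblasts and 0.42 in macrophages. Time and handling of each dissociation are not given in the sources used here, and their part in the result was not tested.

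Egr1, an immediate early transcription factor, had 654 wildtype and 367 Eppk1-/- UMIs, or 4111 CPM (interval 3802 to 4438) and 1762 CPM (1586 to 1952), a log2 ratio of -1.22 (-1.41 to -1.04). The median cell held 5 and 2 UMIs, the highest 96 and 29, and a UMI was found in 66.7% (52.1 to 79.2) and 53.7% (41.1 to 66) of thinned cells. In the same libraries the log2 ratio of Egr1 was -0.09 in keratinocytes, 0.51 in fibroblasts and 1 in macrophages. Jun stood at 6531 and 4326 CPM (-0.59, interval -0.72 to -0.46) and was found in 92.2% (81.1 to 97.8) and 77.6% (65.8 to 86.9) of thinned cells. Fosb (0.04, interval -0.13 to 0.22) and Dusp1 (0.09, interval -0.07 to 0.24) were level, and Nr4a3 was higher (0.30, interval 0.05 to 0.55).

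The heat shock genes Hspa1a and Hspa1b had the lowest ratios of the list, but the median cell held few of their UMIs in either library. Hspa1b had 728 wildtype and 369 Eppk1-/- UMIs, or 4576 and 1772 CPM (log2 ratio -1.37, interval -1.55 to -1.19), and Hspa1a had 622 and 280 UMIs, or 3910 and 1344 CPM (-1.54, interval -1.75 to -1.33). The median cell held 1 Hspa1b UMI in both libraries, and 1 and 1.5 Hspa1a UMIs, while the highest cell held 145 and 59 Hspa1b UMIs and 184 and 37 Hspa1a UMIs. After thinning, more Eppk1-/- cells held a UMI, at 43.1% and 50.7% for Hspa1b and 41.2% and 49.3% for Hspa1a. As the share of cells went against the CPM, no order of the libraries is read from these genes. With each cell given the same weight, the log2 ratios were -0.85 and -0.44.

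Across all genes, a size rule was used in place of a test. It asked for a log2 ratio of at least 1 in either direction and was applied to genes detected in 25% or more of the mast cells of a library that had 50 or more UMIs in both together. Of 1357 genes that passed this detection rule, 32 were higher in Eppk1-/- cells (2.36%) and 19 lower (1.40%). Their median log2 ratio was 0.08, and the middle range ran from -0.18 to 0.35. In 7 of the higher and 11 of the lower genes, 1 cell held over 25% of the UMIs in the library where the gene was higher, which left 25 and 8. Of the 32 and 19 genes, 17 and 10 still passed without the deepest wildtype cell, 11 and 5 without members over 1% of keratinocyte or macrophage markers, and 12 and 14 without high Scrublet scores. With each cell given the same weight 14 and 10 still passed, and after thinning 1 and 1. The higher genes had a median of 71.5 UMIs in both libraries together.

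**Figure D4:**
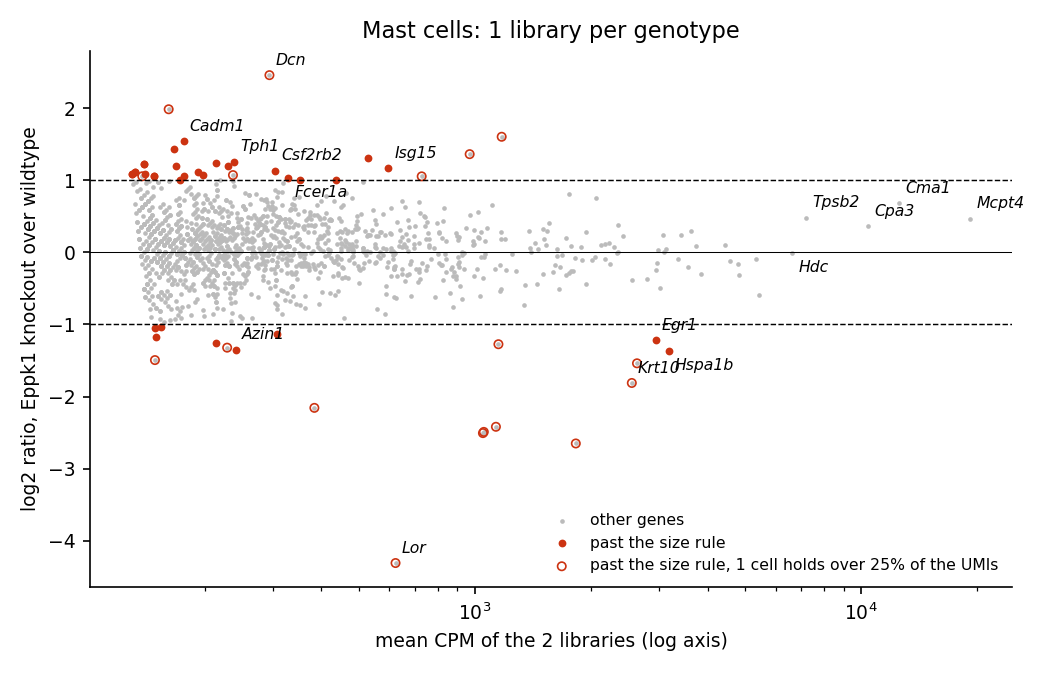
Log2 ratio of Eppk1-/- over wildtype (vertical axis) against the mean CPM of both libraries (log axis) for the 1357 genes, with dashed lines at the size rule. Open circles mark genes past that rule of which 1 cell held over 25% of the UMIs, among them Dcn, Krt10 and Lor. The selecting proteases lie at the right between 0.37 and 0.68.

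The highest ratio not held by 1 cell was that of Cadm1, an adhesion molecule by which mast cells attach to nerves, fibroblasts and muscle. It had 14 wildtype and 55 Eppk1-/- UMIs, or 88 CPM (interval 48.1 to 148) and 264 CPM (199 to 344), a log2 ratio of 1.55 (0.72 to 2.55) and of 1.40 without the deepest cell. A UMI was found in 7.84% (2.18 to 18.9) and 23.9% (14.3 to 35.9) of thinned mast cells. Keratinocytes held Cadm1 in 6.05% and 6.87% of thinned cells, and its log2 ratio there was 0.10. Over all alternatives the ratio in mast cells ran from 0.95 to 2.04.

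Some of the other higher genes encode proteins of actin or of adhesion. Wdr1, which helps to take actin filaments apart, had 13 and 41 UMIs (log2 ratio 1.23, interval 0.34 to 2.29). Flna (1.09), the actin nucleation subunit Arpc1b (1.12), the guanine exchange partner Elmo1 (1.12) and the integrin chain Itgb1 (1.07) passed as well. They were picked from the list after their values were seen, and no list of actin genes was tested. Anxa2, an annexin at membranes, had 48 and 157 UMIs (1.31, interval 0.85 to 1.82), but 1 wildtype cell held 56.3% and 1 Eppk1-/- cell 23.6% of its UMIs. Its log2 ratio turned to -0.45 without cells of high Scrublet scores (a doublet score) and to -0.25 without the cell filter, and was 2.23 without the deepest wildtype cell.

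The remaining named higher genes had other roles. Isg15, a ubiquitin-like protein induced by interferon, had 58 wildtype and 172 Eppk1-/- UMIs, or 365 and 826 CPM (log2 ratio 1.17, interval 0.74 to 1.63), and 17.6% and 28.4% of thinned cells held it. Its log2 ratio went the other way in fibroblasts (-1.37) and macrophages (-0.58) and was 0.11 in keratinocytes. Rnf4, a ligase for ubiquitin, was found in 28.3% and 54.1% of members (1.24, interval 0.52 to 2.07), and Otulin, which removes ubiquitin chains, in 17% and 36.5% (1.23, interval 0.34 to 2.29). Surf4, a cargo receptor of the secretory pathway, had 16 and 49 UMIs (1.2, interval 0.39 to 2.14), and Ankrd17 had 22 and 67 (1.2, interval 0.50 to 1.98). Papss2, which makes the sulfate donor used for heparin, had 37 and 98 UMIs (1, interval 0.46 to 1.60), and Chst11, a sulfotransferase of chondroitin, had 15 and 42 (1.07, interval 0.22 to 2.05).

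Of the 10 lowest genes not held by 1 cell, 8 passed the size rule, and Hspa1b and Egr1 among them are given above. Azin1, a regulator of polyamine synthesis, had 55 wildtype and 28 Eppk1-/- UMIs, or 346 and 134 CPM (log2 ratio -1.35, interval -2.07 to -0.68), and was found in 54.7% and 23.0% of members. Its ratio ran from -1.61 to -1.18 over all alternatives. Cdkn1b, an inhibitor of the cell cycle, had 48 and 26 UMIs (-1.26, interval -2.02 to -0.56), and Zbtb10, a zinc finger gene, had 67 and 40 (-1.13, interval -1.74 to -0.55). Gpr183, a receptor for oxysterols, had 33 and 19 (-1.17, interval -2.08 to -0.33). Clk4 (-1.05) and Manbal (-1.03) passed, and Iqcn (-0.96) and the plakin gene Macf1 (-0.95) did not.

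Genes of keratinocytes among the lower genes lay mostly in 1 wildtype cell, and those of fibroblasts among the higher genes were spread over more cells. Of the lower genes, Lor (log2 ratio -4.31), Krt77 (-2.65), Krtdap (-2.49), Dmkn (-2.42) and Krt10 (-1.81) had 86.4% to 94.0% of their wildtype UMIs in 1 cell. Without the deepest wildtype cell, the log2 ratio of Krt10 turned to 0.80. Of the higher genes, Dcn (2.46) had 50% and Col1a2 (1.99) 31.5% of their Eppk1-/- UMIs in 1 cell, and a UMI was found in 28.4% and 27.0% of Eppk1-/- members. Dcn and Col1a2 belong to the genes whose summed share the collagen ceiling capped at 2%, so their values in members are a description. For Col3a1, another of these genes, the log2 ratio was 3.29, and 0.74 without the ceiling. Without the cell filter the log2 ratio of Dcn turned to -0.62. The members that carried such RNA also carried mast cell proteases, and whether they were droplets with more than 1 cell was not tested directly.

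Eppk1 itself (ENSMUSG00000115388, chr15:76101481-76120195, minus strand) was scarcely detected in mast cells. Over wildtype members it had 168 UMIs, of which the deepest cell held 88.1%, and it was found in 8 of 53 cells. Over Eppk1-/- members it had 3 UMIs in 3 of 74 cells. After thinning, the shares were 3.92% (interval 0.478 to 13.5) and 2.99% (0.364 to 10.4), against 72.8% and 19.3% of keratinocytes. In macrophages, which are not known for epiplakin, 4% and 1.14% of thinned cells held a UMI, so that the level in mast cells is at background.

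Of all 7 plakins, 3 met the detection rule, among them Plec and Macf1. Plec, the gene of plectin, which links intermediate filaments to membranes in many cell types, was found in 75.5% and 77.0% of members, and in 47.1% and 52.2% after thinning. It had 78 wildtype and 168 Eppk1-/- UMIs, or 490 CPM (interval 388 to 612) and 807 CPM (689 to 938), a log2 ratio of 0.71 (0.32 to 1.12) and of 0.48 without the deepest cell. It lies beside Eppk1 at chr15:76170974-76232574, on the same strand. In the same libraries its log2 ratio was 0.22 in keratinocytes, -0.20 in fibroblasts and -0.66 in macrophages. Macf1 had 49 and 33 UMIs (-0.95, interval -1.64 to -0.29). Dsp, Ppl and Evpl had 73.7%, 87.2% and 92.3% of their wildtype UMIs in 1 cell, and the median of the plakin list turned from -1.27 to 0.39 without the deepest cell.

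Genes that answer glucocorticoids were not lower as a group in Eppk1-/- mast cells. Of 11 with at least 50 UMIs, 7 were higher and 4 lower, with a median log2 ratio of 0.09 against 0.07 for all genes. Txnip, a regulator of glucose uptake, had 212 wildtype and 347 Eppk1-/- UMIs, or 1333 and 1666 CPM (0.32, interval 0.07 to 0.58), and was found in 52.9% (38.5 to 67.1) and 70.1% (57.7 to 80.7) of thinned cells. In keratinocytes its log2 ratio was -0.52. Mt2, a metallothionein that binds zinc, had the largest ratio of the list, with 12 and 89 UMIs (2.45, interval 1.63 to 3.51), and 1 Eppk1-/- cell held 25.8% of the latter. Its log2 ratio turned to -0.57 without the cell filter. Tsc22d3 had 55 UMIs in each library (-0.39, interval -0.95 to 0.18) and Fkbp5 12 and 15. Per1, shared with the clock list, stood at 1069 and 1052 CPM (-0.02, interval -0.32 to 0.27), and 2 of 17 measured clock genes had 50 UMIs.

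**Figure D5:**
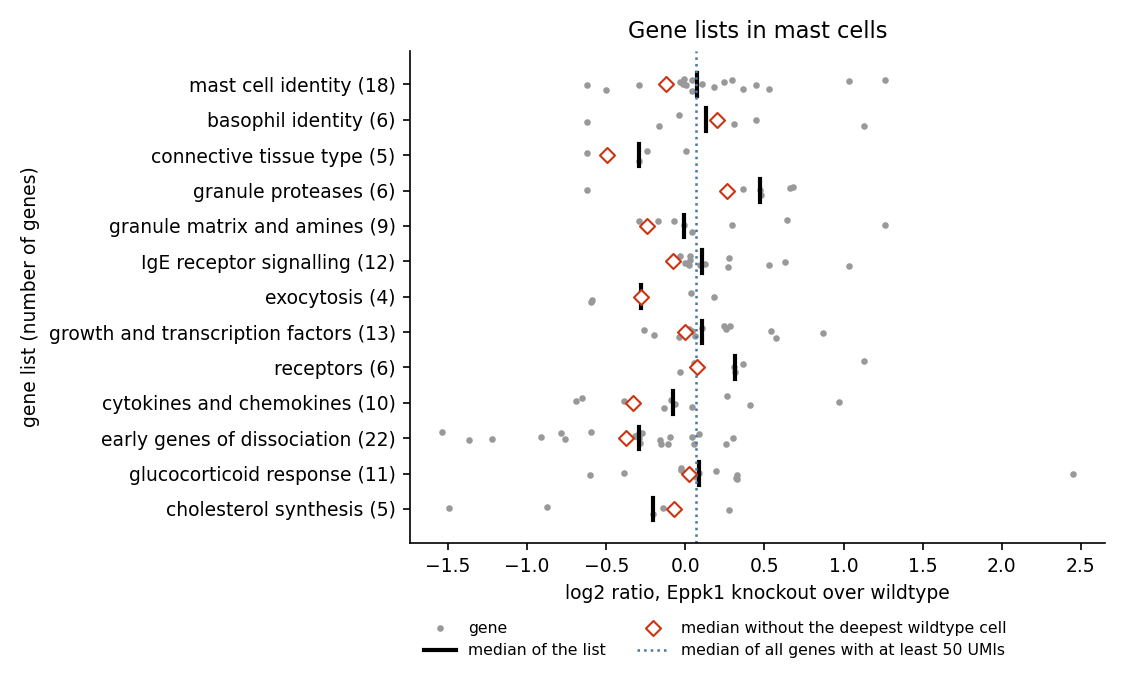
Log2 ratio of Eppk1-/- over wildtype (horizontal axis) for the genes of each list with at least 50 UMIs (grey points, number in brackets), with the median as a black bar and the median without the deepest wildtype cell as a red diamond. The dotted line is the median of all genes, 0.07. The granule proteases (0.47) and the early genes of dissociation (-0.29) stand at opposite sides, and mast cell identity (0.07) lies on the line. Of the 6 granule proteases, 4 had chosen the cells, so their median is a description.

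Side by side, the 18 genes of mast cell identity with at least 50 UMIs had a median log2 ratio of 0.07, equal to that of all genes, with 12 higher and 6 lower. Of these 18, 2 passed the size rule, Fcer1a and Tph1, both higher, against 2.36% of all genes that were higher and 1.40% that were lower. Without the deepest wildtype cell the median was -0.12, and that of all genes of the detection rule moved from 0.08 to -0.01. Of the 10 cytokine genes, 0 passed that rule. The 6 granule proteases with at least 50 UMIs had a median of 0.47, or 0.26 without that cell, and 4 of the 6 had chosen the cells. Of the basophil list, 3 genes were higher and 3 lower (median 0.13), and 5 genes of cholesterol synthesis had a median of -0.21, with 1 higher and 4 lower. The 5 genes of the connective tissue list had a median of -0.29, with 1 higher and 4 lower. The only interval below 0 was that of Tpsab1, whose log2 ratio was 0.08 after thinning.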

How the data were processed

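The authors dissociated whole dorsal skin, fixed the cells, hybridized probes against the mouse transcriptome (Fixed RNA Profiling of 10x Genomics), and made the matrices with Cell Ranger on mm10 (GRCm38). The deposited values are raw UMI counts per gene and cell for 9179 wildtype and 8811 Eppk1-/- barcodes, not normalized, and the cell filters of the study had not been applied.

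Cells, the selecting rule and its thresholds were applied as in the report, removing 304 and 194 cells first. Mitochondrial genes were then left out. Counts were summed over members of each library, with Poisson intervals for CPM, Clopper-Pearson intervals for shares and conditional binomial intervals for ratios. With 1 library per genotype, no test was made and no p-value is given. A count of 0 was taken to allow up to 3 counts. The limits given for Mcpt8 and Alox5 rest on this rule and are not among the exact intervals. Barcodes whose first 16 bases occur in both libraries were counted. Doublets were not removed in the main analysis. As an alternative, cells in the top 5% of Scrublet scores (expected rate 0.06) were left out of each library.

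The members and gene lists were chosen with earlier results of these data known, so no list is independent evidence. Named genes were the markers, the 10 highest and 10 lowest ratios not held by 1 cell (over 25% of UMIs), the 3 most abundant members and the largest ratio of each list, the plakins, and the 10 leading genes against other cells. Others were named after their values were seen. A gene that this rule names is not reported here. Slc18a2, Mrgprb13, Stxbp3 and Ccnb1 are not analysed here. Macrophages were cells with at least 0.2% of UMIs and 4 UMIs from C1qa, C1qb and C1qc. Promoter sequences were taken from RefSeq.

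Alternatives covered the selecting share, the collagen ceiling, the cell filter, doublets, shared barcodes, the total, scaling by TMM (edgeR 4.0.16) or median of ratios, equal weight of cells, thinning, cells with RNA of another type, the detection rule and the size rule. Leaving out the deepest wildtype cell was added after the data were seen. The procedure was tested on simulated data. Python 3.11.15, numpy 2.4.6, pandas 2.3.3, scipy 1.17.1, scanpy 1.11.5, matplotlib 3.10.9 and R 4.3.3 were used.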

Additional observations from a re-analysis of the deposited data

How the results depend on the processing

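The share of mast cells among kept cells stayed within its counting interval when the selecting share, the collagen ceiling, the cell filter, doublets, shared barcodes or the deepest wildtype cell were treated differently. It lay outside that interval in both libraries when keratinocytes and fibroblasts were left out of the denominator, at 0.992% and 1.74%. The number of genes past the size rule, higher in Eppk1 knockout mast cells, was 32 and became 20 without cells over 1% of keratinocyte or macrophage markers, 3 after thinning, 57 with a UMI required in 10% of members, 2255 with no filter on low counts and 207 at a log2 ratio of 0.5. The number of genes past the size rule, lower in Eppk1 knockout mast cells, was 19 and became 36 without the cell filter, 30 with each cell weighted the same, 4 after thinning, 35 at 10% of members, 2157 with no filter and 128 at 0.5. Direction was followed for named genes with a log2 ratio of at least 1 in either direction, whether or not they met the detection rule. Mt2 was among those that did not meet it. Of the genes followed, the direction turned for Anxa2 (-0.25 without the cell filter, -0.45 without high Scrublet scores), Dcn (-0.62 without the cell filter) and Mt2 (-0.57 without it). It turned for Dsp at a selecting share of 1% (0.47), without the deepest wildtype cell (0.39), with equal weight (0.30) and after thinning (0.012). For Ppl the values in that order were 1.16, 1.08, 0.27 and 0.50, for the plakin median 0.47, 0.39, 0.27 and 0.012, and for Krt10 under the first pair 0.86 and 0.80. The median of fibroblast markers turned to -0.12 without the collagen ceiling and -1.03 without the cell filter. Ccl7, whose log2 ratio was under 1, turned to -0.53 without the cell filter and -0.02 with equal weight. The causes were not tested. Of the 32 and 19 genes past the rule, 1 and 1 still passed it after thinning, where 366 genes met the detection rule. Of the values of named genes under the alternatives, 1014 stayed close, 162 moved and 14 reversed, and of list medians 205, 27 and 6. No paired analysis was possible because each genotype has 1 library. Without replicates no library could be left out. Depth limits genes under about 50 UMIs over all members.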
